A study of Homo sapiens with 3 samples.

Results

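The genes described here encode 9 enzymes and enzyme subunits that make, recycle or remove the precursors of DNA: RRM1, RRM2, RRM2B, TYMS, TK1, SAMHD1, DCK, DUT and CTPS1. They were taken by name from 58051 genes in the deposited counts, and all 9 were found. No measured value entered the rule, but the choice was made with earlier results of these data known. Total RNA depleted of ribosomal RNA was sequenced from 3 replicates of H9, an established human embryonic stem cell line of WT genotype that received no treatment. The study measured these levels to relate transcription to DNA breaks at replication origins. There is a single condition and a single line, so that no group could be compared with another, and errors are SDs over these 3 libraries. Nothing in the labels says whether they came from separate cultures. The exact two-sided permutation test of 3 values by flipping signs cannot go below p = 0.25, and therefore no p-values are given. A ratio between genes is called larger than the spread where it had the same direction in all 3 replicates and its mean exceeded 2 SDs.

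Cells build deoxynucleotides along 2 routes. In the de novo route, ribonucleotide reductase (RNR) removes the 2′ hydroxyl of ribonucleoside diphosphates. It is formed by the large catalytic subunit RRM1 with a small subunit, which is RRM2 in S phase or RRM2B, which serves outside S phase. Thymidylate synthase, encoded by TYMS, then methylates dUMP, which the dUTPase DUT supplies while it keeps dUTP out of DNA. In the salvage route, thymidine kinase 1 (TK1) and deoxycytidine kinase (DCK) phosphorylate imported nucleosides in the cytosol. CTPS1 makes CTP from UTP, and SAMHD1 breaks deoxynucleoside triphosphates down. Several of these genes are known as targets of the E2F factors, which drive transcription at the entry into S phase, and pluripotent stem cells are known to spend much of their cycle in that phase.

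Stretches of the RefSeq promoters (GRCh38.p14) are shown because they hold motifs through which such genes are known to be controlled. Windows from 250 bases before to 50 bases after a start were used for 8 of the 9 genes. For each of these 8 genes the window nearest to the start of the canonical transcript was read. RRM2B was not included, and whether its promoter holds these motifs was not tested. The CCAAT box, known to bind the factor NF-Y, was searched on both strands as CCAAT. It was present in 4 of these 8 windows, those of RRM1, RRM2, TK1 and SAMHD1, and in 34.6% of all 35116 promoter windows. RRM2 held 3 copies, at 123, 93 and 66 bases before its start, each followed by the bases gggaaggg. The E2F site was searched on both strands as TTTCCCGC, TTTCGCGC, TTTGCCGC and TTTGGCGC, and was present in the windows of TYMS (39 bases before its start) and DCK (21 bases after), which is 2 of 8, and in 3.31% of all windows. The CHR element was searched as TTTGAA and was present in 1 of 8, that of RRM1, and in 15.2% of all windows. No matches of different motifs overlapped. DUT is known to make a mitochondrial and a nuclear enzyme from different first exons. Its canonical window had no match, and a window whose start lies 768 bases further downstream held 2 E2F matches and 2 CHR matches, a window chosen after it had been seen. Capitals mark the CCAAT and E2F matches, which read ATTGG and GCGGGAAA on the opposite strand. A match is a description of letters and not of binding.
RRM2 (chr2:10122601-10122692, plus strand): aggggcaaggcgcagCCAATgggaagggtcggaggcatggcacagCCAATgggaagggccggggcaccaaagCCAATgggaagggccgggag
TK1 (chr17:78187079-78187144, minus strand): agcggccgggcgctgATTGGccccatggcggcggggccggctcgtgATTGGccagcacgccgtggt
RRM1 (chr11:4094642-4094676, plus strand): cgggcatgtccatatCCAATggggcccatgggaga
SAMHD1 (chr20:36951727-36951772, minus strand): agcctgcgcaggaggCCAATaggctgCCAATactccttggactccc
TYMS (chr18:657599-657636, plus strand): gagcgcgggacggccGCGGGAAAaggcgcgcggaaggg
DUT, downstream start (chr15:48332140-48332192, plus strand): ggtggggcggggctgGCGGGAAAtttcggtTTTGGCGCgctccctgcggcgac

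Replicates 1, 2 and 3 held 10390984, 12024802 and 8655155 reads on genes. The 9 genes together received 0.110%, 0.112% and 0.109% of them. Levels are given in TPM (transcripts per 1e6 transcripts), which corrects each count for gene length, taken as the union of annotated exons, and for depth. The pluripotency genes POU5F1, NANOG, SOX2, LIN28A, DNMT3B, TDGF1 and SALL4 had means from 259 to 2576 TPM, all in the high class defined below. Of 16 markers of endoderm, mesoderm, neural, trophoblast, fibroblast and blood cells, none was in that class and 2 had no read in any replicate (CDX2 and CD14). The highest was MIXL1, an early mesendoderm factor, at 22.3 ± 5.66 TPM (SD, n = 3), followed by the collagen gene COL1A1 at 14.6 TPM. The blood markers, summed, lay between 2.72 and 4.30 TPM. A count of 0 allows up to 3 reads, worth between 0.222 and 0.302 TPM for a protein-coding gene of median length. Such limits cover counting error only, since copies made by PCR are not independent molecules.

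All 9 genes were expressed, from 26.9 to 158 TPM. In bulk RNA, a smaller share of cells in S phase and less RNA per cell cannot be told apart. As in the methods of the study, genes below 0.01 TPM were set apart and the others were divided by level into 3 classes of equal size, here over protein-coding genes. The high class began at 26.96 TPM, and 8 of the 9 genes were in it, beside 28.8% of all protein-coding genes. The remaining gene, DCK, had a mean of 26.91 TPM, just under that boundary. SAMHD1 was just above it, at 28.6 TPM. Both are thus on the boundary within their SD. Without replicate 1 all 9 genes were in the class, and without replicate 3 SAMHD1 joined DCK below it. The median of the 9 genes was 93.1 TPM, and that of all protein-coding genes was 7.10 TPM.

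**Figure D1:**
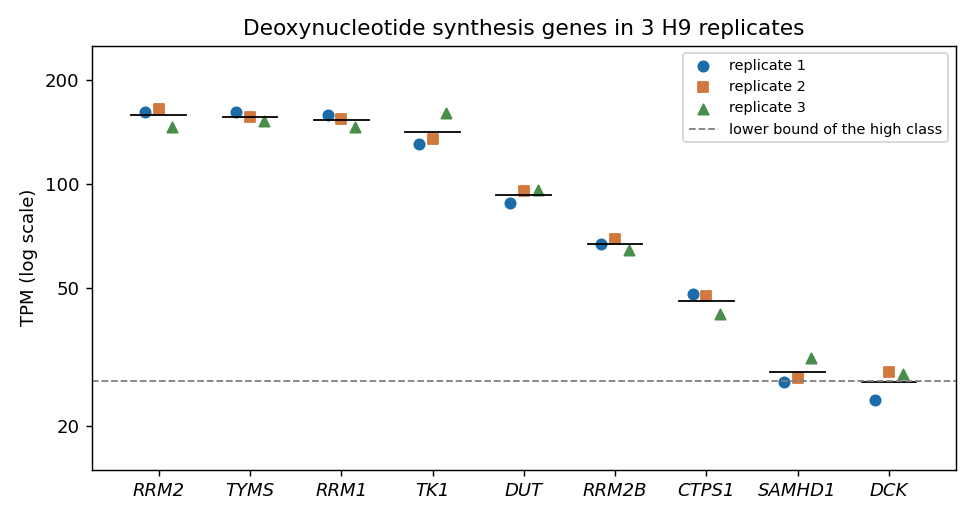
TPM (log scale) of the 9 genes in each of the 3 H9 replicates, ordered by mean (black line). RRM2, TYMS, RRM1 and TK1 lie between 131 and 165 TPM in every replicate, and SAMHD1 and DCK lie around the lower bound of the high class (dashed line, 26.96 TPM).

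The subunits of RNR were measured first. RRM2 (ENSG00000171848, chromosome 2, 10120698 to 10211725, plus strand) had 3852, 4569 and 2972 reads in replicates 1, 2 and 3, which is 33.1% of all reads on the 9 genes. Its levels were 162, 165 and 146 TPM, a mean of 158 ± 9.96 TPM (SD, n = 3). RRM1 (ENSG00000167325, chromosome 11, 4094707 to 4138932, plus strand) had 1746, 1967 and 1368 reads and 158, 154 and 146 TPM, a mean of 153 ± 6.48 TPM (SD, n = 3). Replicate 3 was lowest for both genes. The level of RRM1 was 0.980, 0.931 and 0.995 times that of RRM2 in the 3 replicates, a mean log2 ratio of -0.05 ± 0.05 (SD, n = 3), and it did not differ beyond the spread.

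RRM2B (ENSG00000048392, chromosome 8, 102204502 to 102238961, minus strand), the small subunit known to serve DNA repair and resting cells, had 943, 1133 and 772 reads. Its levels were 67.2, 69.4 and 64.5 TPM, a mean of 67.1 ± 2.47 TPM (SD, n = 3), below RRM1 and RRM2 in every replicate. The level of RRM2 was 2.41, 2.38 and 2.27 times that of RRM2B, a mean log2 ratio of 1.23 ± 0.04 (SD, n = 3), larger than the spread. That of RRM1 was 2.36, 2.21 and 2.26 times that of RRM2B.

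The ratios between subunits depended on the length by which counts were divided. The annotation of RRM2 holds 17 transcripts whose exons cover 9153 bases, and its canonical transcript, the single one that Ensembl selects to stand for the gene, has 3258 bases. With canonical lengths, RRM2 had 267 ± 15.9 TPM (SD, n = 3) and was 5.84 times RRM2B and 2.15 times RRM1. Thus RRM2 was above RRM2B with either length, whereas the near equality of RRM1 and RRM2 held with the union of exons and not with canonical transcripts.

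Copies of the RNR genes elsewhere in the genome could take or give reads. Alignment of the canonical transcripts to the genome, at 90% identity or more over at least 400 bases, found 2 stretches on chromosome X like RRM2. One, at 93.6% identity over 2112 bases, covers RRM2P3, whose 1163 annotated exon bases had 3, 6 and 3 reads. The other, at 93.2% over 964 bases, lies within the span of EFHC2. The 41, 34 and 27 reads of EFHC2 are those of the whole gene. Reads on the stretches themselves were not counted separately. The 3 pseudogenes named after RRM2 had 12 reads in all, or 0.105% of those on RRM2. RRM2B had 2 such stretches, on chromosome 5 (95.6% over 1310 bases) and chromosome 15 (90.4% over 1061 bases). Neither overlaps a counted gene that matched the annotation used here. Whether reads placed there were counted under an identifier without a match was not tested. No such stretch was found for the other 7 genes.

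The enzymes of the thymidylate route were next. TYMS (ENSG00000176890, chromosome 18, 657653 to 673578, plus strand) had 1013, 1144 and 814 reads. Its levels were 161, 156 and 151 TPM, a mean of 156 ± 4.62 TPM (SD, n = 3). The spread of 2.96% was the smallest of the 9 genes and below the 3.21% that counting alone gives. However, 47.9% of the exon length of TYMS is shared with genes on the opposite strand, and the use of strand in counting is not given in the sources used here. ENOSF1, a gene known to run tail to tail with TYMS, covers 39.9% of it and had 716, 868 and 680 reads. Per length, ENOSF1 was lower than TYMS by 6.66, 6.20 and 5.63 times in replicates 1, 2 and 3. TYMSOS, a long noncoding RNA at the other end, had 46, 55 and 33 reads. How many reads of TYMS belong to these genes was not tested. The 2 pseudogenes named after TYMS had 1 read in all.

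DUT (ENSG00000128951, chromosome 15, 48331011 to 48343373, plus strand) had 842, 1058 and 784 reads. It was found at 88.0, 95.2 and 96.1 TPM, a mean of 93.1 ± 4.42 TPM (SD, n = 3). Counts per gene do not separate the nuclear from the mitochondrial enzyme. The antisense gene DUT-AS1 covers 14.5% of its exon length and had 37, 44 and 47 reads. The 8 DUT pseudogenes had 16 reads together, or 0.596% of those on DUT, and no more than 6 on any of them.

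Among the salvage kinases, TK1 was far above the mitochondrial kinase TK2, and DCK was below the mitochondrial kinase DGUOK. TK1 (ENSG00000167900, chromosome 17, 78174091 to 78187233, minus strand) had 627, 750 and 655 reads. It was found at 131, 134 and 160 TPM, a mean of 142 ± 16.0 TPM (SD, n = 3), and was highest in replicate 3. TK2, the mitochondrial thymidine kinase, had 29, 49 and 37 reads and 1.42 ± 0.296 TPM (SD, n = 3). The level of TK1 was 121, 85.8 and 99.2 times that of TK2, a mean log2 ratio of 6.66 ± 0.25 (SD, n = 3), larger than the spread. With canonical lengths it was 60.8 times. With the union of exons, TYMS and TK1, which make thymidylate from dUMP and from thymidine, did not differ beyond the spread. TYMS was 1.23 and 1.16 times TK1 in replicates 1 and 2 and 0.947 times in replicate 3. Their log2 ratio was 0.15 ± 0.20 (SD, n = 3). With the longest transcript its mean was 0.60, over 2 SDs, and with the canonical transcript 0.37, under 2 SDs.

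DCK (ENSG00000156136, chromosome 4, 70992538 to 71030914, plus strand) had 192, 269 and 195 reads, the fewest of the 9 genes. Its levels were 23.8, 28.6 and 28.3 TPM, a mean of 26.9 ± 2.73 TPM (SD, n = 3), with replicate 1 apart from the others. DGUOK, the mitochondrial kinase of deoxyguanosine and deoxyadenosine, had 117 ± 6.69 TPM (SD, n = 3). DCK stood at 0.190, 0.25 and 0.252 times DGUOK, a log2 ratio of -2.13 ± 0.23 (SD, n = 3), larger than the spread, and at 0.209 times with canonical lengths. DCK shares 6.41% of its exon length with MOB1B on the same strand.

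**Figure D2:**
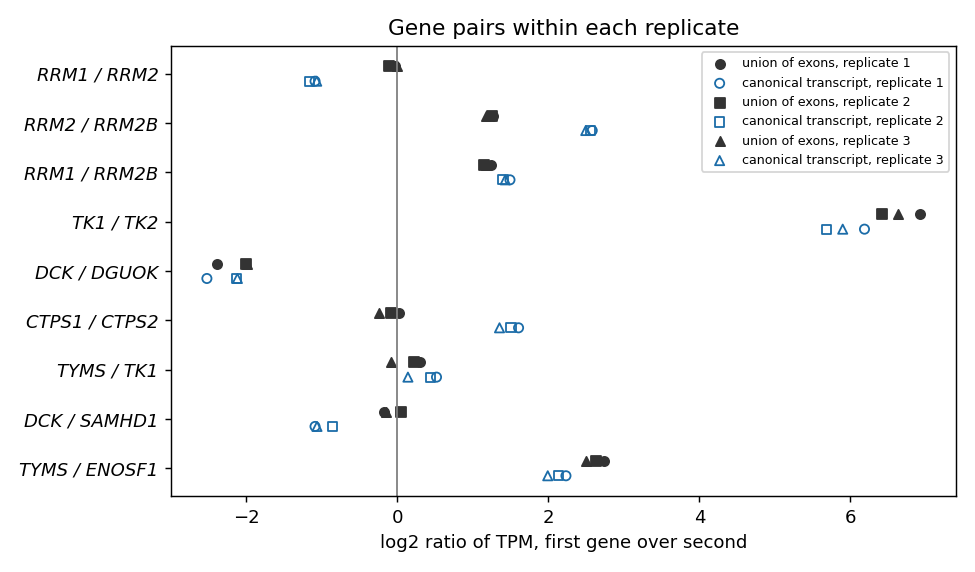
Log2 ratio of TPM within each replicate for 9 gene pairs, the first gene over the second, with the union of exons (filled) or the canonical transcript (open) as gene length. TK1 over TK2 and DCK over DGUOK keep their direction with either length, and CTPS1 over CTPS2 lies around 0 with the union of exons only.

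SAMHD1 works against the synthetic enzymes and is best known for its high level in myeloid cells, where it starves viruses of DNA precursors. The gene (ENSG00000101347, chromosome 20, 36890229 to 36951893, minus strand) had 758, 904 and 756 reads. The levels of 26.9, 27.6 and 31.4 TPM, a mean of 28.6 ± 2.46 TPM (SD, n = 3), were highest in replicate 3. TLDC2, on the opposite strand, covers 9.86% of its exon length, with 75, 83 and 59 reads. The level of DCK was 0.884, 1.04 and 0.901 times that of SAMHD1, and they did not differ beyond the spread. With canonical lengths, DCK was at 0.499 times the level of SAMHD1, which has 10835 bases of annotated exons and a canonical transcript of 4649 bases. Of the blood markers, the leukocyte gene PTPRC had 2, 4 and 1 reads, the monocyte gene CD14 none, and LYZ 12, 22 and 12.

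CTPS1 (ENSG00000171793, chromosome 1, 40979300 to 41012565, plus strand) had 1496, 1721 and 1120 reads. Its levels were 48.1, 47.6 and 42.2 TPM, a mean of 45.9 ± 3.25 TPM (SD, n = 3), with replicate 3 lowest. CTPS2, its paralog, had 49.2 ± 1.52 TPM (SD, n = 3). CTPS1 was at 1.01, 0.943 and 0.849 times CTPS2, not different beyond the spread. The exons of the 24 annotated CTPS1 transcripts cover 11958 bases, against 2840 bases in the canonical transcript. With canonical lengths CTPS1 had 117 ± 7.80 TPM (SD, n = 3) and was 2.81 times CTPS2, larger than the spread. Between these 2 lengths CTPS1 changed by the largest factor of the 9 genes, whereas in TPM RRM2 changed most, from 158 to 267.

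By mean TPM, the order was RRM2, TYMS, RRM1, TK1, DUT, RRM2B, CTPS1, SAMHD1 and DCK. Of the 8 neighboring pairs, 4 were separated beyond the spread. The first 4 genes, within 1.08-fold of their neighbors, formed no separated pair of neighbors, nor did SAMHD1 and DCK. TK1 was above DUT by 1.52-fold, DUT above RRM2B by 1.39-fold, RRM2B above CTPS1 by 1.46-fold and CTPS1 above SAMHD1 by 1.61-fold. With canonical lengths the order was RRM2, TYMS, RRM1, CTPS1, TK1, DUT, RRM2B, SAMHD1 and DCK. RRM2 was then 1.89-fold above TYMS, separated beyond the spread, while RRM1, CTPS1, TK1 and DUT were not separated from their neighbors among themselves. RRM2 at the top and SAMHD1 and DCK at the bottom were common to both orders.

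**Figure D3:**
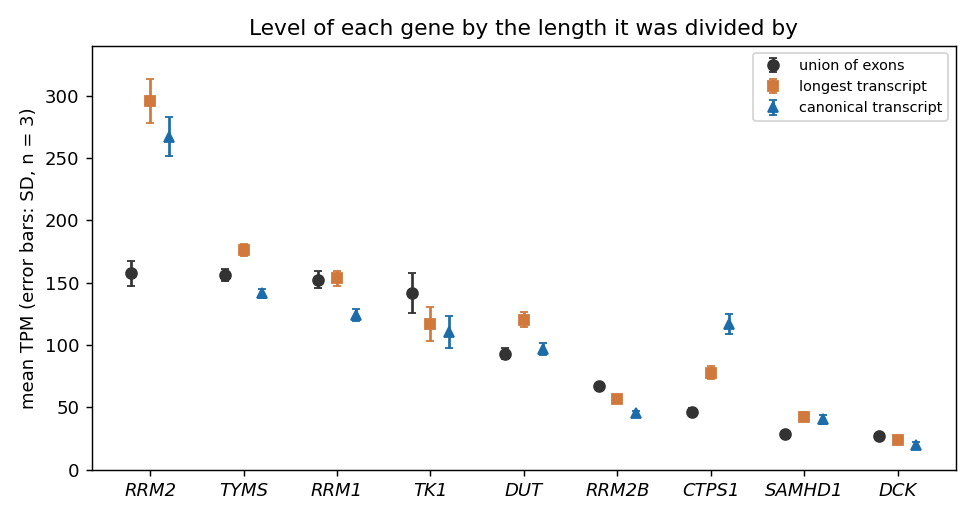
Mean TPM (error bars are the SD of 3 replicates) of the 9 genes when counts are divided by the union of exons, the longest transcript or the canonical transcript. RRM2 rises from 158 to 267 TPM and CTPS1 from 45.9 to 117 TPM between the union and the canonical transcript, and RRM2B falls from 67.1 to 45.7 TPM.

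The spread between replicates was set beside that of other genes of the same class. The coefficient of variation of TPM ranged from 2.96% for TYMS to 11.3% for TK1, and 5 of the 9 genes were above the median of their class, as are 50% of all expressed protein-coding genes by construction. That median was 5.03% for high and 8.41% for medium genes. These 5 genes were TK1, DCK at 10.1%, SAMHD1 at 8.59%, CTPS1 at 7.07% and RRM2 at 6.32%. Counting alone gives 6.84% for DCK, which has few reads, and between 1.65% and 3.85% for the others. This count was 2 without replicate 3, 5 without replicate 1 and 7 without replicate 2.

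The genes went opposite ways in replicate 3. Relative to the mean of replicates 1 and 2, TK1 was higher by 0.27, SAMHD1 by 0.21, DCK by 0.11 and DUT by 0.07 on the log2 scale. CTPS1 fell by 0.18, RRM2 by 0.16, RRM1 by 0.10, RRM2B by 0.08 and TYMS by 0.06 on that scale, each as the difference of replicate 3 from the others. The median of this ratio over genes changed with the GC content of exons, and it was therefore taken over 9386 protein-coding genes with at least 100 reads in every replicate, in 20 bins of GC content. TK1 has the highest exon GC content of the 9 genes, 62.1%, and lay above 76.1% of the genes of its bin, whose median was 0.16. SAMHD1, with 42.5% GC, lay above 96.4% of the genes of its bin, whose median was -0.09. DCK lay above 90.8% and DUT above 85.9% of their bins. CTPS1 lay above 13.6% and RRM2 above 19.8% of theirs. RRM1, RRM2B and TYMS, between 42.2% and 43.5%, were near the middle. The part of GC content in each gene's difference was not tested.

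**Figure D4:**
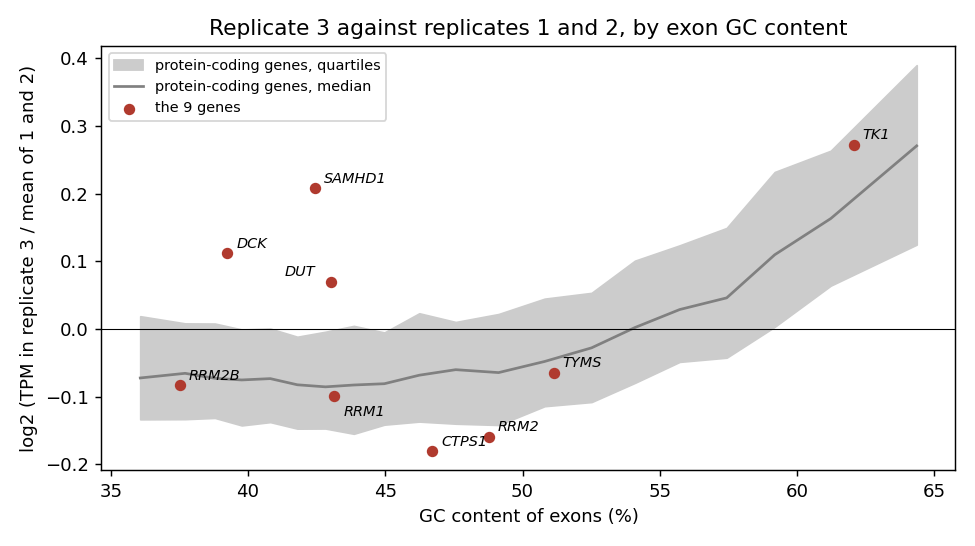
Log2 ratio of TPM in replicate 3 to the mean of replicates 1 and 2 against the GC content of exons. The grey line and band are the median and quartiles of 9386 protein-coding genes in 20 GC bins. SAMHD1, DCK and DUT lie above the band and CTPS1 and RRM2 below it, and TK1, at 62.1% GC, lies near its upper edge where the curve rises.

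Other genes of nucleotide metabolism were grouped by role, with levels per union of exons and counts in the high class to be read beside the 28.8% of all protein-coding genes. Of 64 such genes, 38 were in the high class, 14 in the medium and 12 in the low class, with a median of 50.4 TPM, and with canonical lengths 43 were high. In the thymidylate route, DTYMK, which turns dTMP into dTDP, had 76.9 ± 3.24 TPM and DCTD, which deaminates dCMP to dUMP, had 66.5 ± 2.06 TPM (SD, n = 3), and 3 of 4 genes were high. TK2 was the exception. Electron donors of RNR were led by thioredoxin, TXN, at 461 ± 25.6 TPM, with its reductase TXNRD1 at 158 ± 7.40 TPM (SD, n = 3). Glutaredoxin, GLRX, was at 5.69 ± 0.348 TPM (SD, n = 3), the lowest of these 4 genes.

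All 5 genes that cleanse the nucleotide pool of damaged or unwanted nucleotides were high, from DNPH1 at 30.2 TPM to DCTPP1 at 161 ± 10.2 TPM (SD, n = 3). Of 11 genes of de novo purine synthesis, 10 were high, among them PAICS at 367 ± 22.3 TPM and IMPDH2 at 219 ± 10.9 TPM (SD, n = 3). With canonical lengths the order of these genes turned, to 261 TPM for PAICS and 409 TPM for IMPDH2. ADSS1, the muscle form of adenylosuccinate synthase, was low at 2.30 TPM, and its ubiquitous paralog ADSS2 had 140 TPM. In de novo pyrimidine synthesis 3 of 4 genes were high, with CAD, the enzyme of the first 3 steps, at 167 ± 4.62 TPM (SD, n = 3). DHODH, the mitochondrial step, was at 10.7 TPM. Salvage enzymes were high for 5 of 8 genes, among them APRT at 182 ± 1.69 TPM and HPRT1 at 85.7 ± 6.10 TPM (SD, n = 3), which recover purine bases.

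Of the genes of nucleoside breakdown, 3 of 11 were high, near the share of 28.8% over all protein-coding genes, 5 were low, and the median was 5.19 TPM. Purine nucleoside phosphorylase, PNP, had 68.0 ± 6.51 TPM (SD, n = 3), while the thymidine phosphorylase TYMP had 1.38 TPM and the pyrimidine-degrading DPYD had 13, 12 and 3 reads. Kinases of mono- and diphosphates were high for 5 of 11 genes, led by NME4 at 137 ± 10.5 TPM (SD, n = 3). CMPK2, known as an interferon-induced mitochondrial kinase, had 8, 4 and 4 reads. NME1 and NME2 are related neighboring genes, and how reads were divided between them was not tested, so that their values of 61.1 and 7.18 TPM are uncertain. Carriers were high for 2 of 8 genes, or 3 of 8 with canonical lengths, also near 28.8%. The 2 genes were the equilibrative transporters SLC29A1 at 152 ± 1.97 TPM and SLC29A2 at 59.2 ± 0.193 TPM (SD, n = 3). The concentrative transporter genes SLC28A1 and SLC28A3 had 1 and 2 reads over all replicates.

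**Figure D5:**
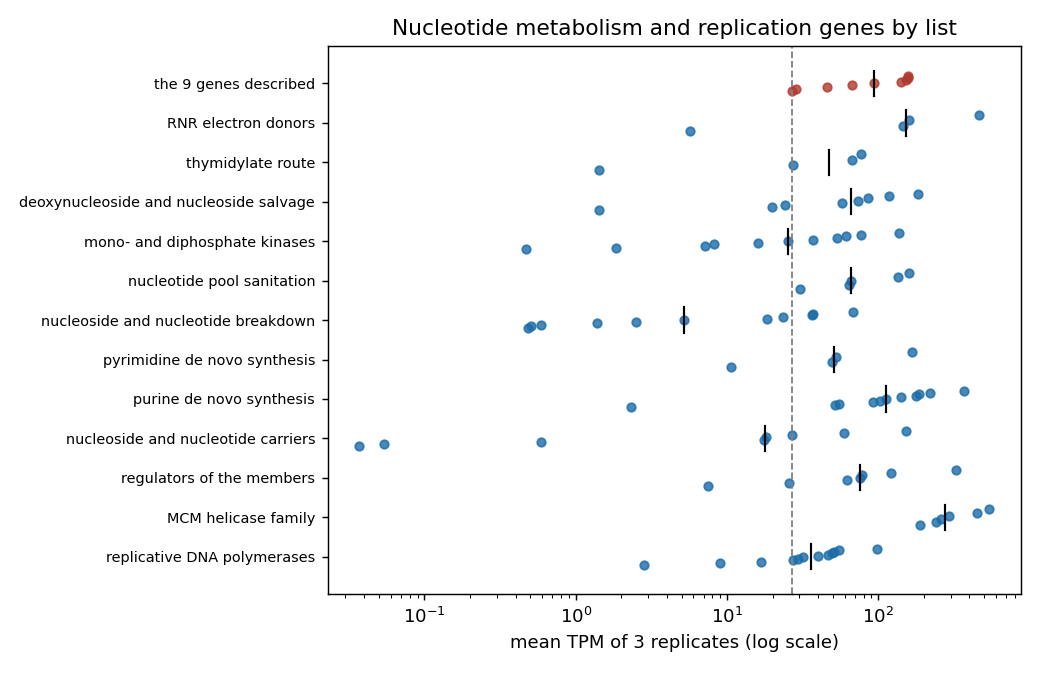
Mean TPM of 3 replicates (log scale) of the 9 genes (red) and of genes of related lists (blue), each point 1 gene and each black line the median of a list, with RNR standing for ribonucleotide reductase. The dashed line is the lower bound of the high class; the 9 genes have a median of 93.1 TPM, the MCM helicase 275 TPM, the replicative polymerases 36.0 TPM and the breakdown genes 5.19 TPM.

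Genes that regulate the 9 genes were high for 5 of 7. E2F1 had 77.9 ± 4.66 TPM, and CCNF, the cyclin F that targets RRM2 for degradation, had 76.2 ± 0.447 TPM (SD, n = 3). FZR1, which as CDH1 directs the removal of TK1 at the end of mitosis, was at 25.5 ± 1.59 TPM (SD, n = 3). The cyclin A2 gene CCNA2, whose kinase phosphorylates SAMHD1, had 324 ± 13.7 TPM (SD, n = 3). CDKN1A, the inhibitor of cyclin-dependent kinases known as p21, was at 7.49 ± 1.35 TPM (SD, n = 3). For scale, the 6 subunits of the MCM2-7 helicase, known to be made in excess of the number of forks, had from 190 to 539 TPM, and the highest of the 9 genes had 158 TPM with the same length measure. With canonical lengths these ranges overlapped, since RRM2 had 267 TPM, above MCM6 at 194, MCM2 at 214 and MCM5 at 241 TPM. The 12 genes of replicative polymerases had from 2.82 to 98.7 TPM. No difference between these lists was tested, since genes are not replicates.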

How the data were processed

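RNA-seq counts of 3 replicates of untreated H9 cells were used. The authors trimmed reads with Trim Galore (0.4.4) and aligned them to GRCh38 with TopHat2 (2.1.1), and the deposited values are raw counts of reads per Ensembl gene; Cufflinks (2.2.1), also named in the submitters' processing notes, gave levels not used here. For the counting tool, annotation and strand setting: not given in the sources used here. Identifiers were joined to GENCODE release 44, on the same build, and 56948 of 58051 matched. TPM used the union of exons. Classes followed the study's methods (0.01 TPM, then 3 quantiles of the mean). The genes and lists were chosen with earlier results of these data known. Named genes were the 9 genes, the fixed lists, overlapping genes and pseudogenes named after them; EFHC2 was named from the alignment, and DUT's downstream promoter window after it had been seen. Proteins were not analysed here, and 2 genes of the related lists, with a ratio to one of them, are not reported here.

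On simulated counts for 19629 protein-coding genes, 96.6% were put back in the class they were drawn from. Depth per replicate stands in the report. edgeR (4.0.16) gave TMM factors and filterByExpr, DESeq2 (1.42.0) size factors, and blastn (2.17.0) the copies, in R 4.3.3 and Python 3.11.15. No test between groups was possible. Alternatives concerned gene length, scaling, depth, class thresholds and replicates.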

Additional observations from a re-analysis of the deposited data

How the results depend on the processing

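The number of the 9 genes in the high class, 8, lay between 7 and 9 under all 14 alternatives run for it. Gene length moved most gene ratios, because it sets the divisor of each gene. With the longest transcript, the log2 ratios were -0.94 for RRM1 to RRM2, 2.37 for RRM2 to RRM2B, 1.43 for RRM1 to RRM2B, 5.69 for TK1 to TK2, 0.71 for CTPS1 to CTPS2, 0.60 for TYMS to TK1, -0.86 for DCK to SAMHD1 and 2.36 for TYMS to ENOSF1. With the canonical transcript they were -1.11, 2.55, 1.44, 5.93, 1.49, 0.37, -1.003 and 2.12, in the same order. DCK to DGUOK moved by less than its spread under every alternative run. With counts thinned to 10%, TK1 to TK2 gave no value, since TK2 lost all reads in some draws. Scaling by TMM or DESeq2 factors and leaving out mitochondrial genes rescale all genes of a replicate alike. They therefore cannot change a ratio taken within a replicate. The median of the replicates and leaving out 1 of 3 replicates moved no ratio beyond its spread, and neither can do so.

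The longest transcript moved the mean TPM of 8 of 9 genes beyond its SD (5 higher and 3 lower), and the canonical transcript 8 (3 higher and 5 lower). Leaving out mitochondrial genes raised the mean of all 9 genes, and for 2 of them (RRM2B and TYMS) the rise exceeded the SD. The count of neighbors separated in the order, 4, became 7 with the longest transcript, by alternatives added after seeing the data. The count of genes above the CV of their class, 5, lay between 2 and 7 with a replicate left out. Depth limits the genes with few reads, such as CMPK2 and the SLC28 genes. No paired analysis was possible because there is a single condition.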
